A study of Mus musculus with 32 samples.

Results

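This report describes 10 transcription factors that set the identity of rods and cones, Crx, Nrl, Nr2e3, Otx2, Neurod1, Mef2d, Mef2c, Esrrb, Thrb and Rxrg, in the photoreceptors of mice with an intact or a mutant circadian clock. They were taken by name from a table of read counts for 54232 Ensembl genes, and all 10 were among the 17871 genes that passed the filter on low counts. RNA was sequenced from photoreceptors cut by laser capture microdissection out of snap-frozen eyes of 6-week-old male mice of strain C57BL/6/J x 129 SvEvBrd. One genotype was wild type (WT). The other, called KO, was Per1-/-Per2Brdm1, mutant in both clock repressor genes Per1 and Per2. Eyes were collected at circadian times (CT) 19, 22, 1 and 10, hours of the internal day counted from subjective dawn, with 4 libraries in each of the 8 groups and 32 in all. In WT at CT1, the library called replicate 5 carries 2 sample numbers in its title and was used as 1 library.

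A small circuit of DNA-binding proteins makes a photoreceptor. The homeodomain factor OTX2 starts the programme and switches on CRX, a related homeodomain factor that drives most photoreceptor genes. The leucine zipper protein NRL commits a precursor to the rod fate and induces the nuclear receptor NR2E3, which holds cone genes silent in rods, while NEUROD1, a basic helix-loop-helix factor, the MADS-box factors MEF2D and MEF2C and the orphan nuclear receptor ESRRB act in maturing and adult photoreceptors. In cones, the thyroid hormone receptor gene Thrb and the retinoid X receptor gene Rxrg shape which opsin is made. These genes stay on in the adult retina, where rods vastly outnumber cones, so bulk photoreceptor RNA mostly reports rods. In such bulk samples fewer cells of a type and less RNA per cell cannot be told apart.

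The start-site regions of a few of these genes show which known motifs of clock and photoreceptor factors they hold. Start-site windows in RefSeq (GRCm38.p6) were found for all 10 genes, 18 windows in total, and the 250 bases upstream of each start were searched on both strands for 6 motifs. These were TAATCC (bound by CRX and OTX2), TGCTGA (core of NRL sites), CACGTG (the E-box of CLOCK and BMAL1), TTATGTAA (the D-box of DBP and NFIL3), AGGTCA (core of nuclear receptor sites) and the MEF2 site consensus. Crx is shown for its own CRX motifs, Esrrb and Mef2d because their transcripts differed between groups, and Mef2c for the start with the most matches. Sequences run 5′ to 3′ on the strand of the gene, and capitals mark a motif match on either strand.
Crx, chr7:15879956-15880205, minus strand: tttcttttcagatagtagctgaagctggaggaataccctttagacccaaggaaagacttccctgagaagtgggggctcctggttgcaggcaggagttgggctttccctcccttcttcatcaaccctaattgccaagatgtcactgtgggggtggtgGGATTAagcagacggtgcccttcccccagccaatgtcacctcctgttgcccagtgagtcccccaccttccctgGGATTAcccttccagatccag
Esrrb, first start, chr12:86360867-86361116, plus strand: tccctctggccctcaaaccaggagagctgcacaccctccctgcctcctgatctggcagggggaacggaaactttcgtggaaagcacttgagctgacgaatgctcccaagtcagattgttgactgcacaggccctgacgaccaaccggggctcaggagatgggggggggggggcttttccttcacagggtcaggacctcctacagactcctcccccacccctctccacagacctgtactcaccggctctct
Esrrb, inner start, chr12:86421394-86421643, plus strand: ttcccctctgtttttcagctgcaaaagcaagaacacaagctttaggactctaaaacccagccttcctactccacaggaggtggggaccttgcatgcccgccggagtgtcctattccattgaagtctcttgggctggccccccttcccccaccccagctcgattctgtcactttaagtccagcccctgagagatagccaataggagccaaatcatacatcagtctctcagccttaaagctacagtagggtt
Mef2d, chr3:88142122-88142371, plus strand: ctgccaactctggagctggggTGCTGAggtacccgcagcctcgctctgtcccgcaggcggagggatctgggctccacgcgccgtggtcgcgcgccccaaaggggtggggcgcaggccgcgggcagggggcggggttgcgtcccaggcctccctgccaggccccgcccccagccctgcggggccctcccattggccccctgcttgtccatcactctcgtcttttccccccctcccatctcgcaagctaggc
Mef2c, innermost start, chr13:83573357-83573606, plus strand: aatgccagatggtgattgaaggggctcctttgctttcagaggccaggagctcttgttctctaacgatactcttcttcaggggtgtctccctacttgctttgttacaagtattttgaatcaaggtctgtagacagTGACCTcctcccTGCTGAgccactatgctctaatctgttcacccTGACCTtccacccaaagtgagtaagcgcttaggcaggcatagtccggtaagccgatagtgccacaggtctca
In the Crx window TAATCC matched on the opposite strand, as GGATTA, beginning 94 and 21 bases upstream of the start. It was present in 3 of the 18 windows of these genes, at Crx, Otx2 and Thrb, and in 6.25% of all 32851 windows in the table. The E-box was found in 1 window, at an inner start of Thrb (6.02% of all windows). No window held the D-box (0.819% of all windows) or the MEF2 site (3.2%). TGCTGA was found in 4 windows, at Mef2c, Mef2d, Neurod1 and Otx2 (16.1% of all windows), and AGGTCA in 4, at Mef2c, Rxrg and Thrb (14%). Neither Esrrb window held any of the 6 motifs, which says only that these letters are not in those stretches. Nor did the only windows of Nrl and Nr2e3, and in all 8 of the 18 windows held none. The Nrl window and the Otx2 window with TAATCC lay wholly in annotated exons of their own genes. The windows printed were chosen after the matches were seen.

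The libraries held 23833604 to 34582742 counts each, and levels are given as CPM, counts relative to library size after TMM scaling, a correction for library composition. As a check of the labels, Per2 counts stood at 15.2 to 44.3 CPM in the 16 WT libraries and at 168 to 267 CPM in the 16 KO libraries. The count of a gene also takes in exons that the mutation leaves, so these levels separate the genotypes and do not check the mutation itself. Rod genes were abundant in every library, with 22 of them summing to 112500 to 192800 CPM. Cone genes (11) summed to 2134 to 3968 CPM. Markers of other cells were present too. In all, 33 markers of the inner retina (bipolar cells, amacrine cells and Müller glia) summed to 946 to 2059 CPM in WT and 1394 to 2644 CPM in KO, and 10 lens markers to 67.2 to 10280 CPM in WT and 201 to 6170 CPM in KO. The summed level of 9 tested pigment epithelium markers was 15.2 to 107 CPM in WT and 17.8 to 47.0 CPM in KO. Of these markers Rpe65, Ttr and Rgr had counts in all 32 libraries, and Tyr had 0 counts in 2. Best1 and Mlana, which did not pass the filter, had 0 counts in 13 and 7 of the 32 libraries.

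Levels of the 10 factors spanned more than 2 orders of magnitude. Per kilobase of annotated exon, Crx (ENSMUSG00000041578, GRCm38 chromosome 7, 15865947 to 15879968, minus strand) had the highest level, 779 ± 41.8 CPM per kb (SD, n = 32). Nrl (ENSMUSG00000040632, chromosome 14, 55518978 to 55524981, minus strand) followed at 418 ± 52.0, then Nr2e3 (ENSMUSG00000032292, chromosome 9, 59942771 to 59960659, minus strand) at 261 ± 19.99 and Neurod1 (ENSMUSG00000034701, chromosome 2, 79452521 to 79456751, minus strand) at 253 ± 23.1 CPM per kb. Esrrb (ENSMUSG00000021255, chromosome 12, 86361117 to 86521628, plus strand) stood at 197 ± 27.6 and Mef2d (ENSMUSG00000001419, chromosome 3, 88142372 to 88172086, plus strand) at 177 ± 23.8 CPM per kb. Neighbours in this order whose means differed by less than either SD were Nr2e3 and Neurod1, and Esrrb and Mef2d. Further down came Otx2 (ENSMUSG00000021848, chromosome 14, 48657677 to 48673819, minus strand) at 75.9 ± 6.42 CPM per kb and Thrb (ENSMUSG00000021779, chromosome 14, 17660261 to 18038090, plus strand) at 22.7 ± 1.99. Mef2c (ENSMUSG00000005583, chromosome 13, 83504034 to 83667080, plus strand) stood at 18.3 ± 2.14 CPM per kb, and the lowest was Rxrg (ENSMUSG00000015843, chromosome 1, 167598384 to 167639623, plus strand) at 3.66 ± 0.614. The rod factors thus sat at the top and both cone receptors among the lowest 3. Length enters this order: per kilobase of the longest coding transcript Nrl stood at 951 CPM per kb and Crx at 843, Esrrb (277) came before Neurod1 (253), and Mef2c (45.8) before Thrb (27.1).

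**Figure D1:**
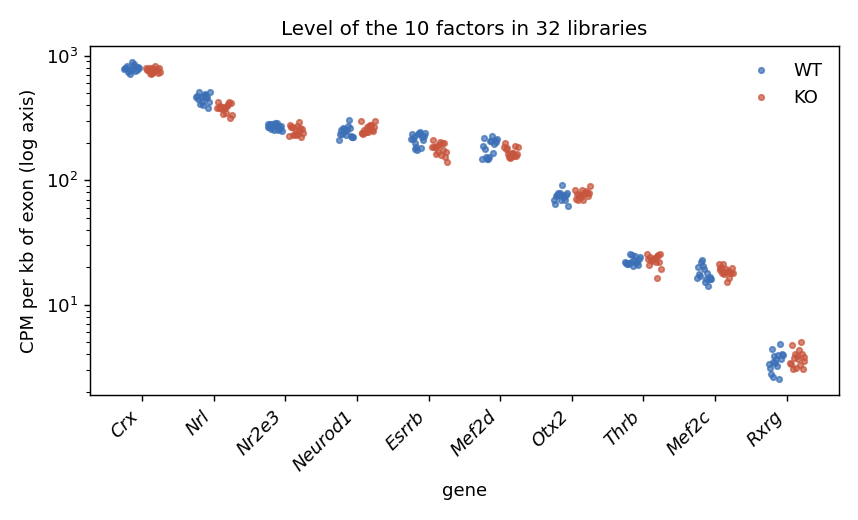
Level of each factor in every library, in CPM per kilobase of annotated exon on a log axis, ordered by the mean over 32 libraries, with WT in blue and KO in red. Crx is at the top (779 on average), Rxrg at the bottom (3.66), and the genotypes overlap for every gene.

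The main comparison asked how these factors differed by genotype, averaged over the 4 times. Nrl and Esrrb were lower in KO, and none of the 10 was called higher. A gene is called here when edgeR's quasi-likelihood test gives a Benjamini-Hochberg adjusted p under 0.05 over all tested genes. Among those genes 16.3% were called, 6.4% lower and 9.88% higher in KO, so 2 of 10 is near the background share. The median log2 fold change of the 10 was −0.02 beside −0.00 over all tested genes, and the median absolute change was 0.08 beside 0.12.

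Nrl, the rod fate switch, showed the lowest adjusted p of the 10. At CT19 the WT libraries held 2718, 2747, 2805 and 2584 CPM and the KO libraries 2152, 1979, 2230 and 2348 CPM. At CT22 they held 2657, 2152, 2437 and 2896 CPM in WT and 2424, 1789, 2372 and 1914 CPM in KO. At CT22 the genotypes overlapped, with WT replicate 2 below 2 of the KO libraries, while at CT19 every KO library was below every WT library. At CT1 Nrl stood at 2643, 2721, 2562 and 2921 CPM in WT and at 2166, 2397, 2161 and 2243 CPM in KO. CT10 gave 2324, 2658, 2416 and 2289 CPM in WT and 2192, 2140, 1935 and 2198 CPM in KO. Both of these times showed no overlap either, although the gap at CT10 was narrow. Over all tested genes, 4.56% at CT19, 3.36% at CT1 and 9.08% at CT10 had KO ranges wholly below WT. All 16 KO libraries lay below the WT median of 2650 CPM. The fitted log2 fold change was −0.26 (SE 0.05, adjusted p = 0.000211, n = 16 against 16), a level in KO of 0.835 times that in WT. Leaving out any single library gave −0.28 to −0.24, and the call stood in all 32 of these fits.

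Esrrb, an orphan nuclear receptor of rods, was lower by a similar amount. In WT it stood at 1420, 1457, 1481 and 1093 CPM at CT19 and at 1342, 1267, 1363 and 1439 CPM at CT22. KO libraries held 1233, 972, 1204 and 1066 CPM at CT19 and 1203, 925, 1010 and 848 CPM at CT22. WT replicate 4 at CT19 was the low library of its group, and at CT22 the genotypes did not overlap. At CT1 the values were 1297, 1424, 1304 and 1335 CPM in WT and 1117, 1271, 1113 and 1109 CPM in KO, again without overlap. By CT10 they were intermixed, 1078, 1206, 1120 and 1049 CPM in WT and 981, 1148, 1024 and 1165 CPM in KO. All 16 KO libraries were below the WT median of 1320 CPM. The mean difference was −0.25 on the log2 scale (SE 0.05, edgeR adjusted p = 0.000947), or 0.843 times the WT level, and −0.27 to −0.23 with any library left out.

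**Figure D2:**
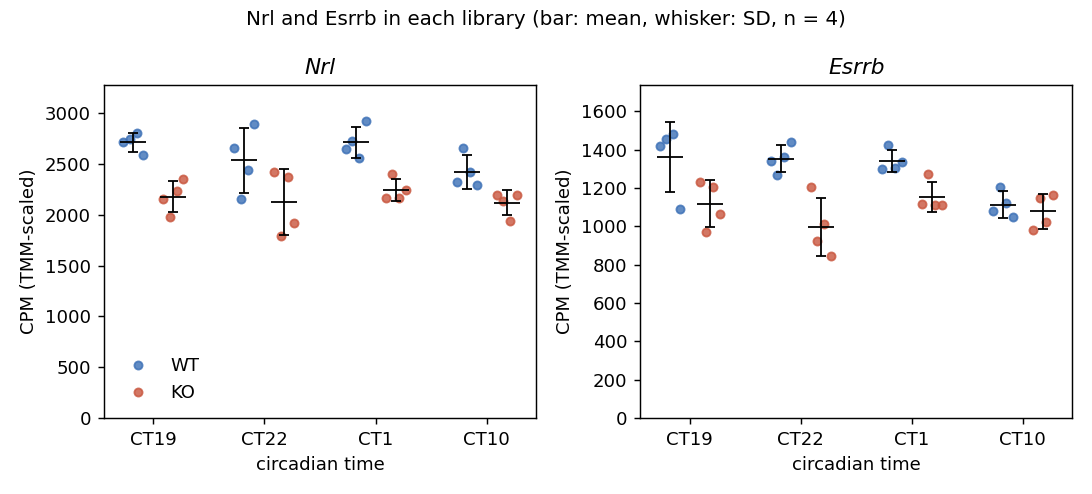
Nrl and Esrrb in each library, in TMM-scaled CPM against circadian time, with WT in blue, KO in red, and the mean and SD of each group of 4 in black. Nrl is lower in KO at each time with overlap at CT22 alone, and the Esrrb groups are intermixed at CT10.

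With the times averaged, Nrl and Esrrb were lower in KO and markers of the inner retina were higher. The mean log2 CPM of these markers was 3.905 ± 0.48 in WT and 4.36 ± 0.29 in KO (SD, n = 16). In KO 11 of 13 bipolar, 4 of 10 amacrine and 5 of 10 Müller glia markers were called higher and none lower. Of the other markers, 5 of 5 for horizontal cells, 1 of 8 for ganglion cells, 3 of 6 for endothelium and 2 of 5 tested for microglia were higher, 1 of 10 for lens was lower and 0 of 9 for pigment epithelium were called. Over the 32 libraries, which share this composition, Nrl had a Pearson correlation of −0.47 with the inner retina level and Esrrb −0.20. With the mean log2 CPM of the rod genes the correlations were 0.73 for Nrl and 0.59 for Esrrb. With the inner retina level as a covariate the Nrl difference was −0.17 (SE 0.06, edgeR adjusted p = 0.0993) and that of Esrrb −0.20 (SE 0.07, adjusted p = 0.0982), so neither was called. At CT10, the time of the widest gap in this level, the Nrl difference of −0.19 became 0.01 and the Esrrb difference of −0.04 became 0.06 with the covariate. Rod genes as a class were also slightly lower in KO: 6 of 22 were called lower and 1 higher, with a median of −0.13. Scaled to the rod genes, a choice made after seeing the data that raised the median of all genes by 0.12, Nrl was still called lower (−0.14, SE 0.03, adjusted p = 0.00387), as was Esrrb (−0.12, SE 0.04, adjusted p = 0.0368).

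Crx, the central homeodomain activator, ranged from 2254 to 2821 CPM in WT (median 2510) and from 2264 to 2628 CPM in KO (median 2422). Its log2 fold change was −0.05 (95% interval −0.12 to 0.02, adjusted p = 0.321), so a change of the size seen for Nrl lay outside its interval. Nr2e3, the target of NRL that silences cone genes, had a median of 913 CPM in WT (834 to 976) and 854 CPM in KO (743 to 995). At −0.10 (SE 0.04, adjusted p = 0.0728) it missed the threshold in edgeR and passed it in DESeq2 (adjusted p = 0.0308), and 7 KO libraries lay below the lowest WT library. With the inner retina covariate the Nr2e3 difference was −0.03 (SE 0.05, adjusted p = 0.786). Otx2 had a median of 318 CPM in WT (263 to 390) and 331 CPM in KO (290 to 382), with a difference of 0.06 (SE 0.04, adjusted p = 0.425). Otx2 shares exon bases with the opposite-strand gene Otx2os1, and the strand setting of the counting is not given in the sources used here. Scaled to the rod genes, the signs of Crx (0.08) and Nr2e3 (0.02) turned, and Otx2 was called higher (0.18, adjusted p = 0.0387).

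Neurod1, Mef2c and Mef2d were not called with the times averaged. Neurod1 stood at a median of 665 CPM in WT (579 to 837) and 686 CPM in KO (643 to 816), a difference of 0.09 (SE 0.04, adjusted p = 0.149). With the inner retina covariate it was 0.17 (adjusted p = 0.0388) and called higher. Neurod1 shares 201 exon bases with the same-strand gene Cerkl, at a mean level of 67.6 CPM, and 154 with the opposite-strand gene Gm26755, at 0.878 CPM. For Mef2c the medians were 266 CPM in WT (222 to 360) and 291 CPM in KO (241 to 337), a difference of 0.08 (SE 0.04, adjusted p = 0.206) that was 0.13 (adjusted p = 0.243) with this covariate. Mef2d had medians of 1144 CPM in WT (883 to 1350) and 980 CPM in KO (897 to 1200), a difference of −0.13 (SE 0.05, adjusted p = 0.0576) that DESeq2 called (adjusted p = 0.0380). With the inner retina covariate the Mef2d difference was −0.05 (SE 0.06, adjusted p = 0.703). Scaled to the rod genes Neurod1 (0.22) and Mef2c (0.21) were called higher, and Mef2d stood at 0.00.

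Both receptors of cone identity showed no difference that passed the test. Thrb had a median of 163 CPM in WT (151 to 189) and 172 CPM in KO (122 to 189), and its log2 fold change of 0.02 had a 95% interval from −0.08 to 0.12. Scaled to the rod genes it was called higher (0.14, adjusted p = 0.0333). Rxrg stood at a median of 8.23 CPM in WT (5.84 to 11.1) and 8.49 CPM in KO (6.96 to 11.6). Its low count gave a wide interval for the log2 fold change, −0.09 to 0.26. With the inner retina covariate the Rxrg difference was 0.28 (SE 0.10, adjusted p = 0.118). Of the 11 cone genes beside these receptors, 5 were called lower and 1 higher in KO, beside 6.4% and 9.88% of all genes, with a median of −0.26. Kcne2, a potassium channel subunit, fell by 0.31 (SE 0.08, adjusted p = 0.00688), Pde6h by 0.50 (SE 0.15, adjusted p = 0.0193), and the cone channel subunit Cngb3 rose by 0.34 (SE 0.06, adjusted p = 0.000306).

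**Figure D3:**
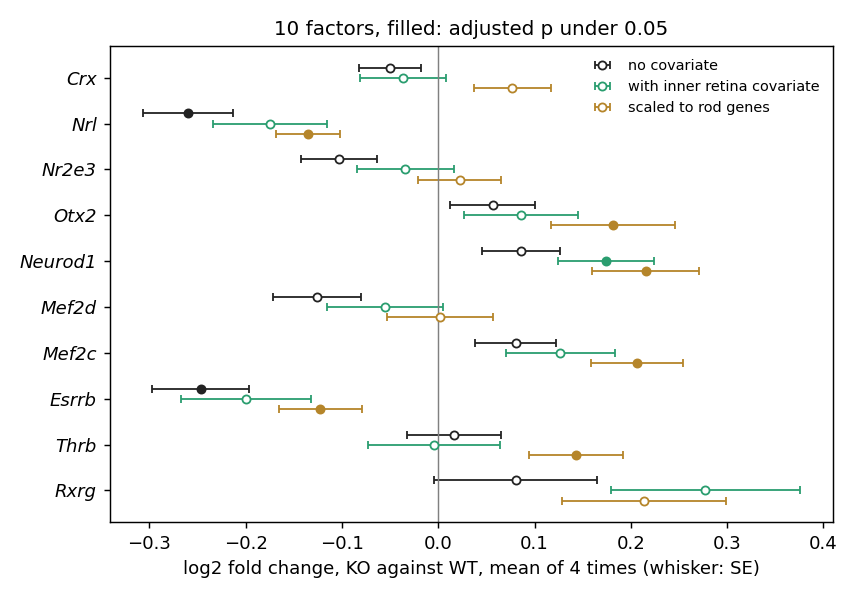
Log2 fold change by genotype (KO minus WT), averaged over the 4 times, for each factor, with its SE, fitted without a covariate (black), with the inner retina level as a covariate (green) and with libraries scaled to rod genes (gold), filled where the adjusted p is under 0.05. Nrl and Esrrb lie below 0 in all 3 fits and are filled in 2 of them.

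At single times few of the factors were called. At CT19, where 5.19% of all genes were called and 2.31% were called lower, Nrl (−0.32, SE 0.09, edgeR adjusted p = 0.0430) and Mef2d (−0.33, SE 0.09, adjusted p = 0.0325) were lower in KO. Both calls were fragile to the libraries used. Among the 8 fits that each left out 1 library, Nrl was called in 2, those without KO replicate 5 and WT replicate 4, and Mef2d in 1, that without WT replicate 4. Neither was called with the inner retina covariate (Nrl −0.23, adjusted p = 0.234, and Mef2d −0.25, adjusted p = 0.186), nor with rod gene scaling (−0.18 for both, adjusted p = 0.0996 and 0.348). Mef2d held 1244, 1246, 1350 and 994 CPM in WT at this time and 926, 999, 989 and 935 CPM in KO, and 1 WT library lay within the KO range. At CT22 (1.53% of all genes called, 0.627% lower) Esrrb alone was called, at −0.44 (SE 0.10, adjusted p = 0.0156). It remained at −0.43 (adjusted p = 0.0180) with the inner retina covariate, at a time when that level was 4.35 in WT and 4.44 in KO. Without WT replicate 3, WT replicate 6, KO replicate 2, KO replicate 3 or KO replicate 4 its adjusted p was 0.0519 to 0.0766, and with the replicate number as a block 0.0594. The call was also lost with only the groups compared in the fit (adjusted p = 0.166) and with rod gene scaling (−0.29, adjusted p = 0.0647).

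CT22 was also the time at which most factors separated by range. Mef2d stood at 1167, 1252, 1217 and 1294 CPM in WT against 1122, 944, 971 and 1099 CPM in KO, all lower. Mef2c went the other way, from 252, 265, 251 and 255 CPM in WT to 288, 285, 311 and 281 CPM in KO. Neurod1 did too, from 616, 606, 611 and 605 CPM in WT to 686, 677, 726 and 809 CPM in KO. With Esrrb, 4 of the 10 did not overlap, 2 lower and 2 higher in KO, where 3.11% and 3.61% of all genes did so. Of the 4 only Esrrb passed edgeR's test across all genes. The log2 differences of the others were −0.25 for Mef2d (adjusted p = 0.203), 0.19 for Mef2c (adjusted p = 0.368) and 0.25 for Neurod1 (adjusted p = 0.134). DESeq2 called Neurod1 (adjusted p = 0.0407), and rod gene scaling called Neurod1 (0.42, adjusted p = 0.0342) and Mef2c (0.35, adjusted p = 0.0435). At CT1 and CT10 edgeR called 0 of the 10, beside 1.58% and 10.2% of all genes, with an unadjusted p under 0.05 for 3 (Nrl, Mef2c and Esrrb) at CT1 and for 2 (Nrl and Mef2c) at CT10, and DESeq2 also called 0 at both.

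The next comparison asked which factors differed among the 4 times within a genotype. In WT, Mef2d, Mef2c and Neurod1 were called by an F test over the times, 3 of 10 beside 14.6% of all genes. Mef2d, which works with CRX at photoreceptor genes, was lowest at CT10 in WT. Its WT libraries held 1244, 1246, 1350 and 994 CPM at CT19, a mean of 1209 ± 152 (SD, n = 4). The means were 1233 ± 53.8 CPM at CT22 and 1091 ± 172 CPM at CT1. By CT10 the mean was 905 ± 20.7 CPM. The 4 libraries at CT10 (919, 886, 890 and 927 CPM) lay below all those at CT19 and CT22, and among the CT1 libraries (883, 1122, 1301 and 1058 CPM) 1 was as low. The fitted range over the times was 0.445 on the log2 scale (adjusted p = 0.00333). Mef2d shares 531 exon bases with the opposite-strand gene 1700113A16Rik, whose mean level was 1.45 CPM.

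Mef2c, a MADS-box relative of Mef2d, moved the opposite way. Its WT libraries held 241, 254, 285 and 222 CPM at CT19 and 252, 265, 251 and 255 CPM at CT22. They held 260, 315, 277 and 267 CPM at CT1 and 350, 360, 323 and 305 CPM at CT10. The CT10 values were above all those at CT19 and CT22, and the range was 0.42 (adjusted p = 0.00219). Neurod1 had its highest WT libraries at CT19 (697, 737, 837 and 716 CPM) and its lowest group mean at CT22 (609 ± 4.87 CPM). At CT1 it stood at 579, 643, 690 and 645 CPM and at CT10 at 710, 707, 684 and 630 CPM, with a range of 0.29 (adjusted p = 0.0436). This last call was lost in 10 of the 16 fits that left out a WT library, with adjusted p up to 0.147 without WT CT19 replicate 3, and with the replicate block (0.104). It was also lost without the filter, with the pigment epithelium level as a covariate, with only the groups compared and with rod gene scaling. Mef2d and Mef2c were called in all 16 fits that left out a WT library.

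**Figure D4:**
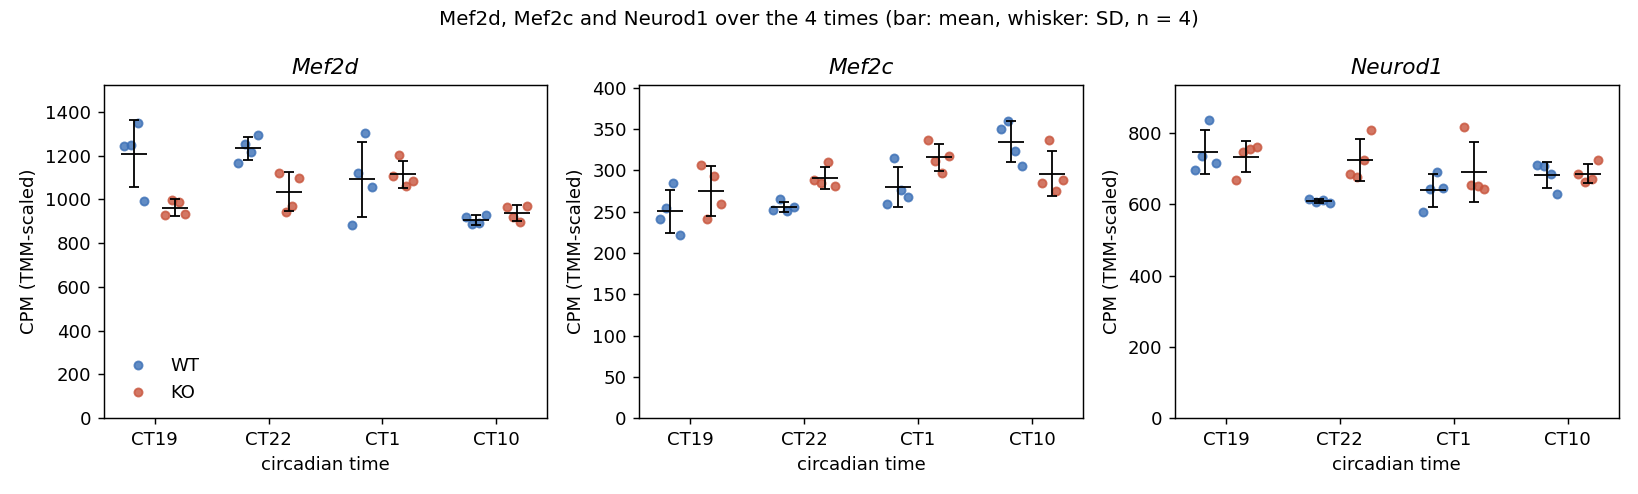
Mef2d, Mef2c and Neurod1 in each library, in TMM-scaled CPM against circadian time, with WT in blue, KO in red, and the mean and SD of each group of 4 in black. In WT, Mef2d is lowest (905 CPM on average) and Mef2c highest (335 CPM) at CT10.

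Markers of other cells moved with time in WT as well. The inner retina level fell to 3.33 ± 0.36 at CT10 from 4.08 ± 0.34 at CT19 and 4.35 ± 0.16 at CT22, and the lens level was 3.93 ± 1.86 at CT19 and 7.28 ± 0.93 at CT10 (mean log2 CPM, SD, n = 4). With the inner retina covariate Mef2d was still called over time in WT (range 0.60, adjusted p = 0.00996) and Mef2c was not (0.34, adjusted p = 0.137). With inner retina and lens levels together none of the 3 was called, and their adjusted p was 0.102 for Mef2d, 0.229 for Mef2c and 0.270 for Neurod1. Of the markers of cells known to express Mef2c, 6 for endothelium summed to 27.8 to 83.7 CPM and 5 tested for microglia to 0.750 to 4.79 CPM in WT. Their mean log2 levels were lowest in WT at CT10 (1.11 and −1.58). Whether such cells add to the Mef2c counts was not tested.

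**Figure D5:**
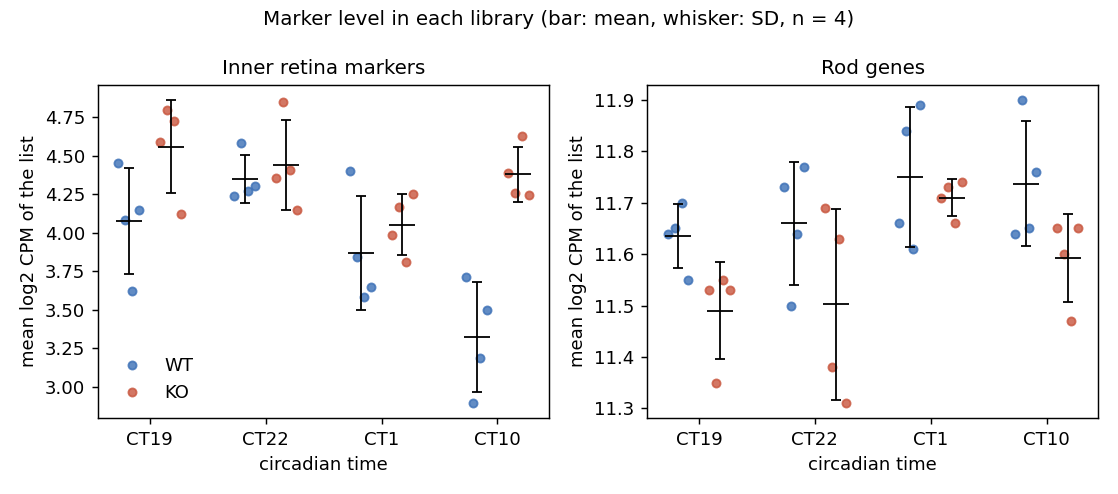
Mean log2 CPM of the 33 inner retina markers (left) and 22 rod genes (right) in each library against circadian time, with WT in blue, KO in red, and the mean and SD of each group of 4 in black. The inner retina level is lowest in WT at CT10 (3.33). The group means of the rod gene level run from 11.49 to 11.75, with the KO mean below the WT mean at each time.

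The other 7 factors were not called over time in WT. Esrrb had a range of 0.29 (adjusted p = 0.0982) and its lowest WT group at CT10 (1113 ± 68.4 CPM beside 1340 to 1363 at the other times). Rxrg had a range of 0.31 (adjusted p = 0.410), Crx 0.17 (0.263), Nrl 0.16 (0.450), Otx2 0.15 (0.526), Thrb 0.13 (0.745) and Nr2e3 0.08 (0.837). Nr2e3 therefore had the narrowest span of group means, from 885 ± 41.8 CPM at CT22 to 932 ± 57.4 CPM at CT19. The median range of the 10 was 0.23 beside 0.39 for all tested genes.

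In KO edgeR called 0 of the 10 over time, beside 0.0056% of all genes (1 gene), with an unadjusted p under 0.05 for Mef2d alone, and DESeq2 called 0. Mef2d in KO was highest at CT1 (1108, 1200, 1061 and 1084 CPM) and lowest at CT10 (964, 917, 897 and 969 CPM), a range of 0.25 (adjusted p = 0.469). The KO range of Mef2c was 0.20 (adjusted p = 0.660) and that of Neurod1 0.10 (adjusted p = 0.890). A WT gene called over time and not called in KO is not thereby different between them. The genotype by time interaction, which tests that difference, called 0 of the 10 beside 1.62% of all genes. Its unadjusted p was under 0.05 for Mef2d (0.0103, adjusted 0.161) and Mef2c (0.0139, adjusted 0.181), and DESeq2 also called 0. For Mef2d the KO against WT difference ran from −0.33 at CT19 and −0.25 at CT22 to 0.03 at CT1 and 0.05 at CT10. For Mef2c it was 0.14, 0.19, 0.18 and −0.18 at the same times.

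Members varied together in part. Over the 32 libraries, which share composition and scaling, the log2 CPM of Nrl had a Pearson correlation of 0.81 with Esrrb and 0.69 with Nr2e3. After each group's mean was taken out these were 0.635 and 0.54. Crx had 0.65 with Esrrb and 0.62 with Mef2d. Otx2 and Neurod1 had 0.59 with each other and −0.28 and −0.20 with Nrl. Mef2d and Mef2c had −0.365, and 0.27 once group means were taken out, so their opposite movement lay between groups.

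Among the other protein-coding genes, those most like each factor over the 32 libraries were read as a description. Nrl was closest to Pcbp2 (r = 0.88), Sap30l (0.855) and Alpl (0.85), all 3 called lower in KO. Esrrb was closest to the acyltransferase gene Agpat3 (0.865), the nuclear receptor gene Ppard (0.85) and the hexokinase gene Hk1 (0.85), with Ppard at −0.37 (SE 0.04, adjusted p = 6.39e-08) between the genotypes. Crx was nearest to the mitochondrial chaperone gene Hspa9 (0.85), Fiz1 (0.83), which encodes a zinc finger protein known to bind NRL, and the retinal homeobox gene Rax (0.80). For Nr2e3 they were Pip4k2c (0.83), Fam53b (0.77) and Fam57b (0.76). Mef2d had Trp53inp2 (0.88), Nectin1 (0.88) and Samd4b (0.88), and Mef2c had Zfp800 (0.85), the kinase gene Dyrk2 (0.84) and Fam98b (0.84), which were all called over time in WT. The nearest genes of Otx2 (Dnajb4, Ccng2 and Abraxas1, 0.62 to 0.64), Neurod1 (Tgfbr3l, Hbp1 and Pcyox1l, 0.69 to 0.74), Thrb (Zfp518b, Kbtbd2 and Ube3c, 0.71 to 0.75) and Rxrg (Ampd2, Socs3 and Dusp23, 0.70 to 0.73) were less alike.

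Paralogs of the 10 were examined from a list of 17, of which 15 were tested. Over the mean of the times 3 were called higher and 1 lower in KO, beside 9.88% and 6.4% of all genes, with a median of 0.05. Thra, the thyroid hormone receptor beside Thrb, rose by 0.19 (SE 0.05, adjusted p = 0.00537), and Neurod4, a relative of Neurod1 known from bipolar and amacrine cells, rose by 0.49 (SE 0.12, adjusted p = 0.00702). Over time in WT 4 were called, beside 14.6% of all genes. Among them was Mef2a (range 0.38, adjusted p = 0.00590), another MEF2 gene beside Mef2c and Mef2d.

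Other regulators of retinal and photoreceptor development formed a list of 32, of which 30 were tested. Over the mean of the times 9 were called higher and 2 lower in KO, beside 9.88% and 6.4% of all genes. Their median was 0.25, beside −0.00 over all tested genes. By single time, 4 were called higher and 1 lower at CT19, 1 and 1 at CT22, 1 and 0 at CT1, and 11 and 0 at CT10. The 9 called higher over the mean included Nr1d1, the clock repressor REV-ERB alpha (0.68, SE 0.05, adjusted p = 1.42e-11), and Six6 (0.51, SE 0.07, adjusted p = 5.09e-06). Among the 9, Pax6, Onecut1 and Onecut2 also stand in the marker lists of inner retinal neurons, which were higher in KO. The 2 that fell were Samd11, a repressor of non-rod genes (−0.20, SE 0.06, adjusted p = 0.0196), and Rax (−0.14, SE 0.04, adjusted p = 0.0200), both expressed in photoreceptors. Casz1, which acts in rod chromatin, was called over time in WT (range 0.67, adjusted p = 3.76e-05), and so was the orphan receptor gene Rorb (0.54, adjusted p = 0.00720), which acts upstream of Nrl. Neither was called over time in KO (adjusted p = 0.696 and 0.413). Both were called for the genotype by time interaction (edgeR adjusted p = 0.00157 and 0.0154), 2 of the 30 beside 1.62% of all genes. The KO against WT difference at CT19, CT22, CT1 and CT10 was −0.37, −0.44, 0.02 and 0.36 for Casz1. For Rorb it was −0.31, −0.36, 0.20 and 0.40.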

How the data were processed

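Read counts per gene, as the authors deposited them, were available for 32 libraries of microdissected photoreceptor RNA. The submitters' processing notes name Trimmomatic 0.32, HISAT2 2.1.0, Cufflinks, HTSeq 0.11 and the build GRCm38.p6. For their settings, the annotation release and the strand setting, nothing is given in the sources used here. Symbols, exons and positions came from GENCODE M21 (GRCm38), which matched 99.9% of the 54232 identifiers. Start-site sequences came from RefSeq.

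All 32 libraries (23833604 to 34582742 counts) were fitted together as 8 group means with no replicate block in edgeR 4.0.16 (R 4.3.3) by quasi-likelihood with robust shrinkage, after a filter on low counts (minimum count 10, minimum total 15) and TMM scaling. P-values were adjusted by Benjamini-Hochberg over all 17871 tested genes, and a gene was called under 0.05. Intervals at 95% are the estimate and SE with 24 residual degrees of freedom, fewer than edgeR's moderated test uses. Log2 CPM used a prior count of 2. The script was tested on simulated data. The labels do not state separate animals for every library, so p-values measure the spread between libraries.

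Same-numbered libraries did not deviate together across groups (median r −0.02 over 77 pairs), so the numbers were not treated as pairs. No pair of libraries within a group held identical counts.

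Alternatives were DESeq2 1.42.0, its size factors, no filter, a replicate block, marker levels as covariates, the compared groups alone and each library left out. Scaling to rod genes and the coding transcript length were chosen after seeing the data. The 10 factors and all gene lists were chosen with earlier results of these data known. Genes named beyond the 10 were, in each list, up to 3 called genes of smallest p over the mean of the times and, for each factor, the 3 protein-coding genes of highest correlation with a mean log2 CPM of at least 1. Other regulators and paralogs named over time, and Onecut1, Onecut2, Pax6, Samd11 and Rax over genotype, were named after their values were seen. Some genes that this rule names are not reported here.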

Additional observations from a re-analysis of the deposited data

Results flagged for a closer look

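In 7 of the 80 sets of 4 libraries (10 factors in 8 groups), 1 library stood apart from the other 3 by more than Dixon's 95% critical value, which chance passes in about 1 of 20 sets. Esrrb in WT CT19 replicate 4 was at 1093 CPM beside 1420 to 1481 in the others, and in KO CT1 replicate 4 at 1271 CPM beside 1109 to 1117. Neurod1 in KO CT19 replicate 2 was at 668 CPM beside 748 to 761, and in KO CT1 replicate 1 at 816 CPM beside 643 to 654. Crx in KO CT10 replicate 5 stood at 2536 CPM beside 2264 to 2310. Nr2e3 in KO CT10 replicate 3 stood at 883 CPM beside 779 to 788. Otx2 in WT CT19 replicate 1 stood at 390 CPM beside 310 to 321.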

How the results depend on the processing

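Over the mean of the times 2 of the 10 factors were called. DESeq2 called 4 (Nrl, Esrrb, Nr2e3 and Mef2d). With the inner retina covariate Nrl and Esrrb both lost their calls and the 1 call was Neurod1, and with inner retina and lens covariates 0 were called. Rod gene scaling gave 6, Nrl and Esrrb lower and Otx2, Neurod1, Mef2c and Thrb higher. The count over all 17871 tested genes moved too. It was 2909 in the main fit, 3329 with DESeq2 and 757 with the inner retina covariate. Inner retina and lens covariates gave 546 and rod gene scaling 4220. Leaving out a library gave 2 to 4 of the 10 factors, with 4 without WT CT19 replicate 4. At CT19 the count of 2 became 0 without a filter, with the replicate block, with either set of inner retina covariates, with only the groups compared and with rod gene scaling, and 0 to 3 with a library left out. At CT22 the 1 call, Esrrb, became 2 with DESeq2 (Esrrb and Neurod1) and 2 others with rod gene scaling (Neurod1 and Mef2c, with Esrrb lost), 0 with the replicate block or only the groups compared, and 0 to 1 with a library left out. For times within WT the count of 3 became 4 with DESeq2, which added Crx, and 0 with inner retina and lens covariates. It was 2 without a filter, with the replicate block, with the inner retina or pigment epithelium covariate and with only the groups compared. Neurod1 was lost in each of these except the inner retina covariate, where Mef2c was lost. Rod gene scaling gave 3, with Esrrb in place of Neurod1, and leaving out a library gave 2 to 4. At CT1, at CT10, within KO and for the interaction the count of these factors stayed 0 in every setting run. Apart from fits that left out 1 library, the count over all tested genes ran from 194 to 1463 at CT19 (928 in the main fit). It ran from 120 to 453 at CT22 (273) and from 406 to 3547 for times within WT (2615). Elsewhere it was 179 to 482 at CT1, 53 to 2244 at CT10, 0 to 188 within KO and 4 to 897 for the interaction. The replicate block left the calls of Nrl (−0.26) and Esrrb (−0.24) over the mean of the times in place, and those of Mef2d and Mef2c within WT. The causes of these changes were not tested.

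Every value that turned direction belonged to a factor not called in that comparison. Rod gene scaling, which raised the median of all genes by 0.12 over the mean of the times, 0.15 at CT19, 0.18 at CT22 and 0.14 at CT10, turned Crx (0.077), Nr2e3 (0.0222) and Mef2d (0.00199) over the mean of the times. At CT19 it turned Crx (0.0401), Nr2e3 (0.0653), Otx2 (0.106), Neurod1 (0.120) and Thrb (0.114). It turned Crx (0.108) and Nr2e3 (0.0582) at CT22, Crx (0.0130) at CT1, and Esrrb (0.103) and Thrb (0.109) at CT10. The inner retina covariate turned Thrb (−0.00451) over the mean of the times, Neurod1 (0.0708) at CT19, and Nrl (0.00576), Nr2e3 (0.00951) and Esrrb (0.0650) at CT10. With lens added, Thrb (−0.0357) over the mean of the times, Neurod1 (0.0825) at CT19, and Crx (−0.0247), Nrl (0.0334) and Nr2e3 (0.0180) at CT10 turned. The pigment epithelium covariate turned Thrb (−0.00985) at CT22. With a library left out, Thrb ran from −0.000992 to 0.0470 over the mean of the times. At CT19 the range was −0.0694 to 0.0440 for Otx2, −0.0616 to 0.0325 for Neurod1 and −0.100 to 0.0956 for Thrb, and at CT22 −0.0231 to 0.100 for Thrb. At CT1 it was −0.0693 to 0.125 for Mef2d and −0.0620 to 0.254 for Rxrg. At CT10 it was −0.0399 to 0.0166 for Crx, −0.0343 to 0.0295 for Otx2 and −0.0302 to 0.0259 for Neurod1.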
